A study of Homo sapiens with 12 samples.

Results

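The genes described here are 41 genes of S phase and DNA replication, out of 35633 human genes with a count in the deposited UMI or read tables. They were chosen by name, as a list of S-phase genes in common use for scoring the cell cycle, and the rule uses no measured value. All 41 matched an Ensembl identifier of the tables through the GENCODE annotation. The study introduced LAST-seq, a single-cell RNA assay that amplifies RNA directly by T7 in vitro transcription, and compared it with CEL-seq2 and SMART-seq. HEK293T cells, an embryonic kidney line that carries the SV40 large T antigen, were sorted alive with no gate on the cell cycle and are therefore called cycling. They gave 2 LAST-seq libraries of 10 cells each (A60 spike-in mix in replicate 1, ERCC spike-in mix in replicate 2), 2 CEL-seq2 libraries of 10 cells each and 6 cells by SMART-seq. Wells of HEK293T lysate or of 15 pg total RNA were taken to hold the same RNA and to show the spread of an assay. Whether the lysate wells are equal portions of the same lysate is not stated.

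The other cells came from eHAP1, a haploid line derived from a leukaemia line, grown out from single cells. They were stained for DNA content and live haploid cells in G1 were sorted, for both WT and SCC4 KO. SCC4 (MAU2) encodes a partner of the cohesin loader, and the knockout was made with Cas9 and taken through a single-cell clone. WT gave 73 and 75 cells and SCC4 KO 77 and 76 cells in batches 1 and 2. All eHAP1 cells were profiled by LAST-seq from pools of 80 cells. A comparison of HEK293T with eHAP1 therefore sets apart the cell line, the sort, the pool size and the depth at once, and these cannot be told apart.

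DNA replication starts when CDC6 helps to load the MCM2 to MCM7 ring on origins in G1, a step that geminin (GMNN) blocks later in the cycle. CDC45 and the GINS complex turn the ring into the active helicase, primase and the DNA polymerases copy the strands, PCNA holds the polymerases on DNA, and ribonucleotide reductase (RRM1, RRM2) and thymidylate synthase (TYMS) supply deoxynucleotides. Transcription of many of these genes rises in late G1 and S phase, when E2F factors are released from the retinoblastoma protein.

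Because E2F factors are the known common regulator of these genes, their promoters were searched for the E2F motif, spelled TTTCCCGC, TTTCGCGC, TTTGCCGC or TTTGGCGC, on both strands. The RefSeq promoters on GRCh38.p14 ran from 250 bases before to 50 bases after a start site, and 33 of the 41 genes had one. MCM4, MCM5, POLD3, DSCC1, ATAD2, WDR76, CCNE2 and E2F8 were not matched. Of the 33 genes, 21 held the motif (63.6%), against 3.99% of the 27305 genes in that table. Of 39 genes in a second list, of other replication genes, 15 held it (38.5%). A match is a description of letters and not of binding.
Windows of 5 genes whose levels are given in the results are shown, with the matches in capitals. MCM6 and TIPIN hold matches on both strands that overlap, which makes a longer run of capitals.
MCM6, chr2:135876558-135876621, minus strand: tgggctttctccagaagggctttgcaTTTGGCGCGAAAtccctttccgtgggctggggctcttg
MCM6, chr2:135876496-135876559, minus strand: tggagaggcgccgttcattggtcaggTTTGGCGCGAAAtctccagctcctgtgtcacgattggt
GMNN, chr6:24775307-24775366, plus strand: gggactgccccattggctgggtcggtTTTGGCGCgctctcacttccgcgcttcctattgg
MCM7, chr7:100101551-100101610, minus strand: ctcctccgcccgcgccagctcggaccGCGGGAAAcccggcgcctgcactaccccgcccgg
TIPIN, chr15:66356714-66356777, minus strand: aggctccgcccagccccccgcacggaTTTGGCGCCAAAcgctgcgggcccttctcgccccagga
PCNA, chr20:5126648-5126707, minus strand: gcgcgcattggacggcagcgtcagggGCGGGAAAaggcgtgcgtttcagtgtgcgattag
The matches shown end 140 and 78 bases before the start site in MCM6, 72 bases before it in GMNN, 179 in MCM7, 54 in TIPIN and 51 in PCNA. MCM7 holds another match, not shown, that ends 1 base before the start site.

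Several libraries had features that bear on these results. The wells held between 62811 and 195399 UMIs in the HEK293T libraries, 18011 to 926081 in eHAP1 WT and 44950 to 320133 in SCC4 KO. The knockout check, MAU2, was at 44.2 and 41.2 CPM (counts of a gene scaled to a sum of 1000000 over all genes of a library) in the WT batches and at 9.18 and 14.5 in the SCC4 KO batches. Among genes of at least 1000 UMIs, the batches of 1 genotype agreed more closely than counting error allows (median squared deviate 0.214 in WT and 0.119 in SCC4 KO, where counting alone gives 0.455). Replicates 1 and 2 of HEK293T had values of 5.12 (LAST-seq) and 42.4 (CEL-seq2). The study applied a batch correction to eHAP1 counts, and whether the deposited counts had passed through it is not stated. Each eHAP1 genotype was therefore counted as 1 sample, and the gap between its batches was not used as an error. All 6 SMART-seq cells held nearly the same reads as 6 of the 16 SMART-seq lysate wells of replicate 2 (statistic 0.940 to 1.001), so their SMART-seq levels are not separate measurements. Of 496 pairs of SMART-seq wells, 9 had a statistic under 2, these 6 among them. The others under 2, at 1.027, 1.176 and 1.198, were pairs of wells within lysate replicate 1. All pairs above 2 were at 11.5 or more. The libraries reuse well barcodes, with all 10 shared by the LAST-seq libraries of HEK293T cells and 72 by batch 1 of both genotypes. The 4 blood markers, PTPRC, SPI1, CD33 and CD34, were at 0 in eHAP1 WT, and 1 of 4 was detected in SCC4 KO. Together they were at 6.32 and 7.29 CPM in the LAST-seq libraries of HEK293T cells. The HEK293T markers PAX2, LHX1, NEFL and NEFM summed to 29.5 and 19.2 CPM in these libraries, with 1 and 3 of 4 detected, and to 22.5 to 60.5 in the eHAP1 batches, with 2 to 4 detected. Neither list told the lines apart in the direction of its name.

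The share of all gene UMIs that fell on the 41 genes was the score of a cell or library. In HEK293T cells it was 0.438% in LAST-seq replicate 1 (exact 95% interval 0.427 to 0.449) and 0.396% in replicate 2 (0.386 to 0.406). In eHAP1 WT it was 0.342% (0.338 to 0.347) in batch 1 and 0.343% (0.340 to 0.347) in batch 2, and in SCC4 KO it was 0.331% (0.327 to 0.336) and 0.329% (0.325 to 0.332). These intervals cover counting error only. Both HEK293T libraries were above all 4 eHAP1 batches.

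The mean share of HEK293T cells was 1.22 times that of eHAP1 WT, with 1.153 to 1.278 over the pairings of libraries, and 1.26 times that of SCC4 KO, with 1.20 to 1.33. Each eHAP1 genotype was 1 sample, so no test was made. The lowest ratios came from LAST-seq replicate 2 and the highest from replicate 1. Mitochondrial genes took 14.3% to 16.6% of UMIs in the HEK293T cells and 20.8% to 21.2% in eHAP1. With mitochondrial genes left out of the total, the ratios were 1.14 and 1.18. Scaled to total UMIs, as the share is, the median gene was also higher in HEK293T. Among genes that averaged 1 UMI or more in a cell, the median log2 ratio to WT was 0.18 for the members and 0.21 for all 9721 genes. Against SCC4 KO it was 0.25 for the members and 0.19 for all 9664 genes.

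The share differed between cells and lysate of the same line as well. The lysate of HEK293T cells had a LAST-seq share of 0.319% (exact interval 0.307 to 0.332), and 15-pg RNA of 0.387% (0.375 to 0.398). The cells were thus at 1.31 times their own lysate, and that lysate was below the eHAP1 WT batches. Against 15-pg RNA they were at 1.08 times (1.02 to 1.13), with 15 of 34 members higher in both cell libraries and 10 lower, beside 40.5% and 32.6% of 9498 genes. For the lysate, of the 34 members that passed the filter on low values (on average 1 UMI or more in a well), 23 were higher in both cell libraries than in the lysate and 5 were lower. Among all 9173 genes, 55.2% were higher and 24.2% lower. By CEL-seq2 the cells were at 1.23 times the lysate, with 25 of 38 members higher and 7 lower, against 61.4% and 17.1% of all genes. With 1 library of each input, no test was made.

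**Figure D1:**
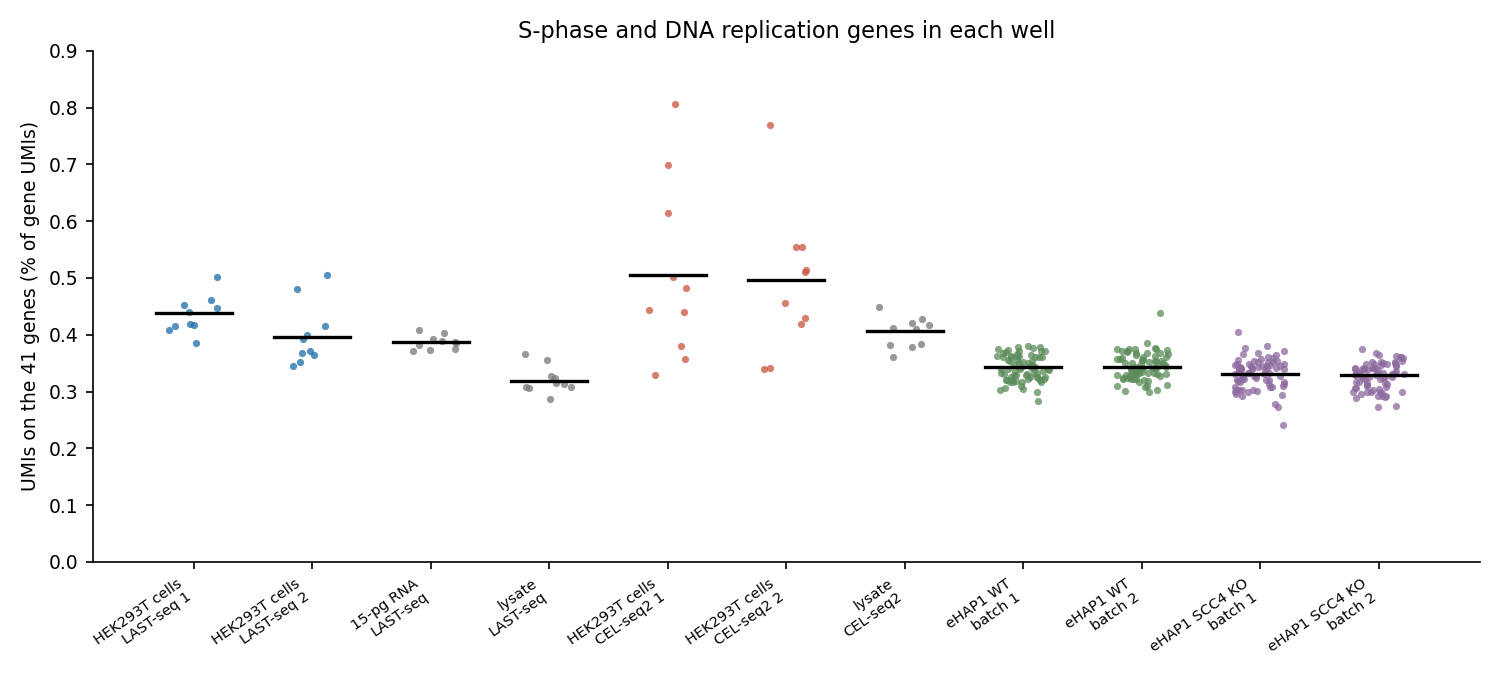
Share of gene UMIs on the 41 genes in each well (y axis, %), by library; points are wells and bars are library sums. CEL-seq2 cells ranged from 0.329% to 0.807%, LAST-seq cells of HEK293T from 0.345% to 0.505%, and the eHAP1 batches lay around 0.33% to 0.34%.

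The cells of 1 library differed most in HEK293T by CEL-seq2. The share was 0.505 ± 0.155% (SD, 10 wells) in CEL-seq2 replicate 1, with wells from 0.329% to 0.807%, and 0.489 ± 0.126% in replicate 2, from 0.339% to 0.769%. The CEL-seq2 lysate wells gave 0.404 ± 0.0271%. LAST-seq cells gave 0.435 ± 0.0330% and 0.399 ± 0.0539%, their lysate wells 0.321 ± 0.0239% and the 15-pg RNA wells 0.387 ± 0.0125%. The SD of cells was thus 1.82 times that of lysate in LAST-seq and 5.19 times in CEL-seq2. Counting alone gives an SD of 0.0165% to 0.0189% in these cell libraries. The SD over CEL-seq2 cells was 8.44 and 6.64 times the counting SD, and that over LAST-seq cells 1.82 and 3.28 times. The cells of a library were pooled for amplification and are no replicates of an assay.

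G1-sorted eHAP1 cells had a spread of the share nearer to counting error than HEK293T cells had. Their SD was 0.0223% and 0.0237% in the WT batches and 0.0262% and 0.0230% in the SCC4 KO batches, which is 1.13 to 1.54 times the counting SD. Wells taken to hold the same RNA had 1.19 times the counting SD for LAST-seq lysate and 0.665 times for 15-pg RNA. Batch 2 of each genotype, at 1.46 and 1.54 times, and SCC4 KO batch 1, at 1.28 times, were above both. WT batch 1, at 1.13 times, was under the lysate and above the 15-pg RNA. Of the 148 WT cells, 66 had a share at or above that of the lowest HEK293T LAST-seq cell (0.345%), and of the 153 SCC4 KO cells, 42. That limit lies near the median WT cell of 0.340% and 0.342%, and the exact interval of 134 WT and 117 SCC4 KO cells reached across it. The whole interval was above the limit in 5 WT cells and in 1 SCC4 KO cell, and below it in 9 and 35. Thinned to 50000 UMIs a cell, which left out 3 WT cells and 1 SCC4 KO cell, 103 of 145 and 80 of 152 cells reached the lowest HEK293T cell, which was at 0.328% when thinned in the same way. With mitochondrial genes left out, 133 and 112 cells did. Only 1 WT cell was above the median HEK293T cell of 0.416%, and that cell had 18011 UMIs, of which 79 were on the members, for a share of 0.439% (exact interval 0.347 to 0.546). The highest SCC4 KO cell had 0.406% (0.360 to 0.456).

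Over cells, the members rose and fell with each other in HEK293T. For each member that averaged 1 UMI or more in a well, Pearson's r was taken over the wells of 1 library between its level and the summed level of the other members. In CEL-seq2 replicate 1, r was above 0 for 39 of 39 members, with a median of 0.634, and in replicate 2 for 33 of 38, with a median of 0.516. In LAST-seq, r was above 0 for 24 of 35 members in replicate 1 (median 0.299) and 31 of 35 in replicate 2 (median 0.461), beside 51.2% and 49.1% of other genes. In the lysate wells it was above 0 for 20 of 37 in CEL-seq2 (median 0.00722) and 19 of 31 in LAST-seq (median 0.0754), and in 15-pg RNA for 9 of 34 (median -0.137). Other genes had medians of -0.0107 and 0.00842 against the summed members in the CEL-seq2 cell libraries, and 48.9% and 50.9% of them were above 0. These values describe 10 wells that share a pool and a total, and no p is given.

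The closest to the rest of the group in CEL-seq2 replicate 1 were POLA1, a catalytic subunit of DNA polymerase alpha (r = 0.955), MCM4 (0.925) and UNG, a uracil-DNA glycosylase (0.884). In replicate 2, USP1, a deubiquitinase that acts on PCNA, had 0.860, POLA1 0.832 and MCM4 0.823. In eHAP1, where 73 to 77 cells stood in each batch, the median r was 0.0166 and 0.0376 in WT and 0.104 and 0.0981 in SCC4 KO, with r above 0 for 20 and 23 of 35 members in WT and for 23 of 34 and 30 of 35 in SCC4 KO. Of the other genes, 50.5% and 43.1% were above 0 in WT and 51.1% and 52.7% in SCC4 KO. The share of members above 0 in SCC4 KO batch 2, 85.7%, was near that of CEL-seq2 replicate 2, 86.8%, while its median r was lower. Weak values in sparse counts are given as a description only.

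**Figure D2:**
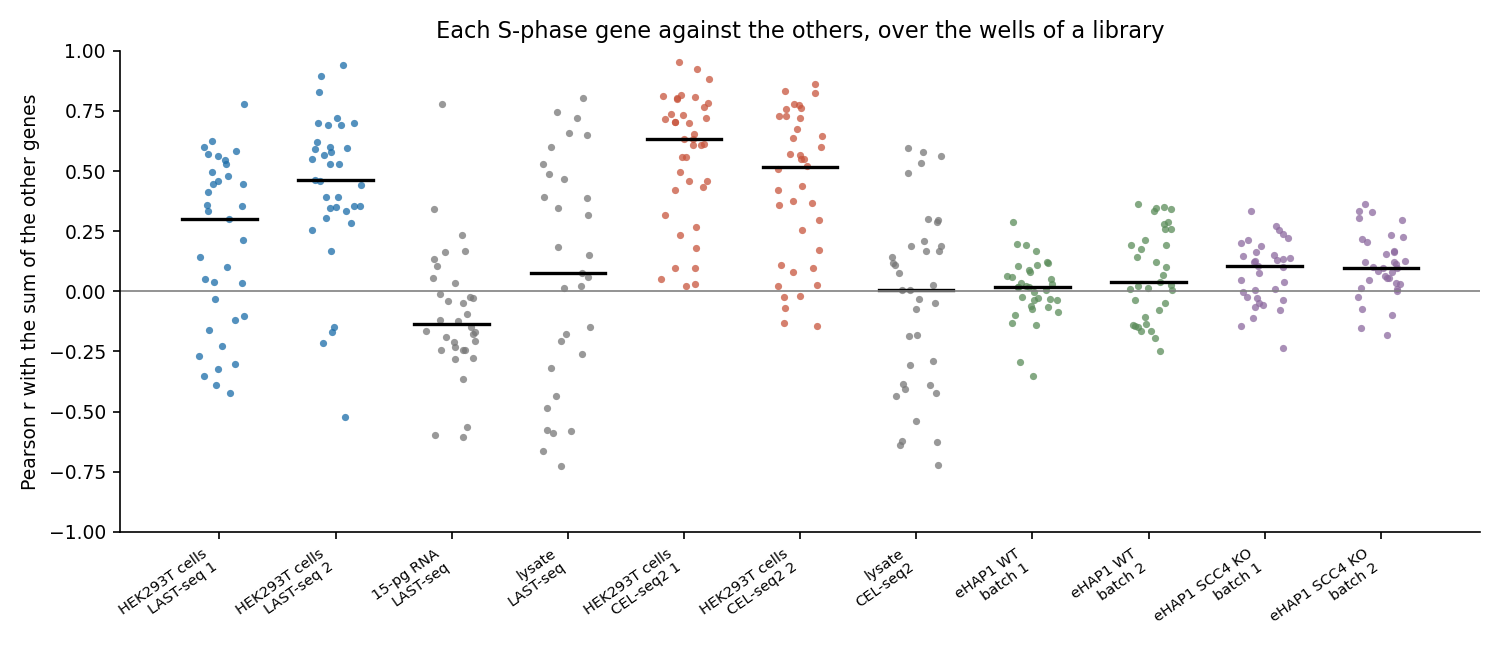
Pearson's r (y axis) of each member with the sum of the other members over the wells of a library; each point is a gene that averaged 1 UMI or more in a well and bars are medians. The medians are 0.634 and 0.516 in CEL-seq2 cells, 0.299 and 0.461 in LAST-seq cells of HEK293T, and lie between -0.137 and 0.104 in the other libraries.

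The share of a second list, 53 genes of G2 and mitosis, was read in the same wells. Its mean over wells was 0.382 ± 0.0427% and 0.530 ± 0.0719% in LAST-seq cells of HEK293T, 0.677 ± 0.184% and 0.548 ± 0.204% in CEL-seq2 cells, 0.442 ± 0.0280% and 0.437 ± 0.0265% in eHAP1 WT and 0.382 ± 0.0414% and 0.377 ± 0.0249% in SCC4 KO. The WT batches thus lay between the LAST-seq replicates of HEK293T, and the SCC4 KO batches lay at or just under replicate 1. In CEL-seq2 replicate 1, r between the S-phase share and the G2 and mitosis share was -0.933 over 10 cells, and in replicate 2 it was -0.160. It was -0.495 and -0.503 in the LAST-seq cells, -0.395 in LAST-seq lysate and 0.432 in CEL-seq2 lysate, so r was below -0.9 in 1 of 4 cell libraries. Both shares have the same total UMIs as denominator.

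Gene by gene, members were both higher and lower in HEK293T cells than in eHAP1 WT, 21 above a log2 ratio of 0 and 15 below. A member was called when its CPM, with 0.5 UMI added, were past 2-fold in the same direction in every pairing of a HEK293T LAST-seq library with an eHAP1 batch. Of the 41 members, 36 averaged 1 UMI or more in a cell, and against eHAP1 WT, 3 of them were called higher and 2 lower. Of all 9721 genes, 12.4% were called higher and 10.5% lower, so neither count stood out from the background. The median log2 ratio of the members was 0.18, beside 0.21 for all genes. Scaling by edgeR's TMM factors lowered the median of all genes by 0.22 (a shift of -0.222) and left 0 members called higher and 2 lower. The share of all genes called with these factors was not counted, so the latter counts have no background. By role, the median was 0.39 for the helicase and licensing genes, 0.17 for DNA synthesis, 0.68 for the pair of reductase genes, -0.53 for chromatin and histone supply and 0.03 for checkpoint and repair.

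Among members that passed the filter, GMNN, which encodes geminin, had the highest ratio to eHAP1 WT. It was at 350 and 291 CPM in the LAST-seq libraries of HEK293T cells, 126 in both WT batches and 144 in both SCC4 KO batches. The log2 ratio to WT was 1.34, with 1.21 to 1.48 over pairings, and that to SCC4 KO was 1.148. HEK293T libraries and eHAP1 batches did not overlap.

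CDC6, the licensing factor, was at 81.4 and 78.8 CPM in HEK293T, 31.8 and 33.4 in WT and 46.8 and 50.6 in SCC4 KO. HELLS, a chromatin remodeller of the SNF2 family, was at 182 and 190, 77.2 and 78.7, and 70.6 and 68.0 in the same order. The log2 ratios of HEK293T to WT were 1.30 and 1.26. HELLS was past 2-fold against SCC4 KO too (1.43), and CDC6 was not (0.72).

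USP1 was at 407 and 372 CPM in HEK293T, 185 and 187 in WT and 106.5 and 105.8 in SCC4 KO. It was the checkpoint and repair gene with the most UMIs in HEK293T. Against WT its log2 ratio of 1.07 missed the call in 1 pairing, and against SCC4 KO it was called, at 1.87.

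Members lower in HEK293T than in WT were WDR76, whose product binds sites of DNA damage, PRIM1, the primase subunit, and ATAD2, a chromatin ATPase. WDR76 was at 7.02 and 6.62 CPM in HEK293T, 20.9 and 20.2 in WT and 27.8 and 25.4 in SCC4 KO, with a log2 ratio of -1.53 to WT. PRIM1 was at 4.91 and 5.30, 11.5 and 13.1, and 10.3 and 9.51, with a ratio of -1.18. WDR76 and PRIM1 were called and rest on 20 and 15 UMIs in HEK293T. Of the last 500 exonic bases of PRIM1, 78.8% lie in exons of NACA or ENSG00000285625 on the same strand. NACA was at 913 and 956 CPM in HEK293T, 209 and 211 in WT and 363 and 366 in SCC4 KO. The part of this overlap in the ratio of PRIM1 was not tested. ATAD2 was at 40.0 and 25.8, 59.7 and 57.2, and 48.1 and 43.7, and its ratio of -0.85 was not past 2-fold in every pairing.

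The MCM genes, subunits of the replicative helicase, belong to the role with the most UMIs, and none of those measured was past 2-fold between the lines. MCM7 was the member with the most UMIs, at 432 and 448 CPM in HEK293T, 549 and 555 in WT and 381 in both SCC4 KO batches. MCM6 was at 240 and 177, 158 and 157, and 169 and 170 in the same order. MCM4 was at 206 and 207, 196 and 200, and 174 and 172. None of MCM3 to MCM7 was called against WT, and MCM7 was the subunit with the WT batches above both HEK293T libraries.

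MCM5 was at 145 and 98.0 CPM in HEK293T, 115.8 and 116.5 in WT and 166 and 163 in SCC4 KO. MCM3 was at 119 and 81.5, 86.3 and 86.9, and 117 and 116. For both, the eHAP1 WT values lay between the HEK293T replicates. The log2 ratios of HEK293T to WT were 0.39 for MCM6, 0.19 for MCM3, 0.06 for MCM4, 0.04 for MCM5 and -0.33 for MCM7. The helicase and licensing genes together took 41.8% and 41.5% of member UMIs in HEK293T LAST-seq replicates 1 and 2.

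PCNA, the sliding clamp, was at 390 and 360 CPM in HEK293T, 264 and 265 in WT and 251 and 250 in SCC4 KO. RRM2, the regulated subunit of ribonucleotide reductase, was at 267.5 and 283.6, 176.6 and 174.5, and 174.5 and 174.3. Both genes were higher in each HEK293T library than in each eHAP1 batch, with log2 ratios to WT of 0.50 and 0.65, and were under 2-fold. CENPU, a centromere protein, was at 66.0 and 113, 107 in both WT batches and 75.1 and 71.6, so the HEK293T replicates lay on either side of eHAP1. E2F8, a repressor of the E2F family, was at 4.91 and 6.62, 2.04 and 2.11, and 2.18 and 2.74, and did not pass the filter on low values.

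Against SCC4 KO, 34 members passed the filter, with 5 called higher (GMNN, HELLS, TIPIN, EXO1 and USP1) and 2 lower (DTL and WDR76), beside 11.0% and 9.85% of 9664 genes. EXO1, an exonuclease of DNA repair, was at 44.2 and 46.4 CPM in HEK293T, 23.8 and 15.9 in WT and 14.00 and 15.17 in SCC4 KO, with a log2 ratio of 1.64 to SCC4 KO. The median was 0.25 for the members and 0.19 for all genes, and 3 members were called higher with TMM factors. For that count too, the share of all genes called was not counted. HEK293T cells serve both comparisons, which are therefore not independent of each other.

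**Figure D3:**
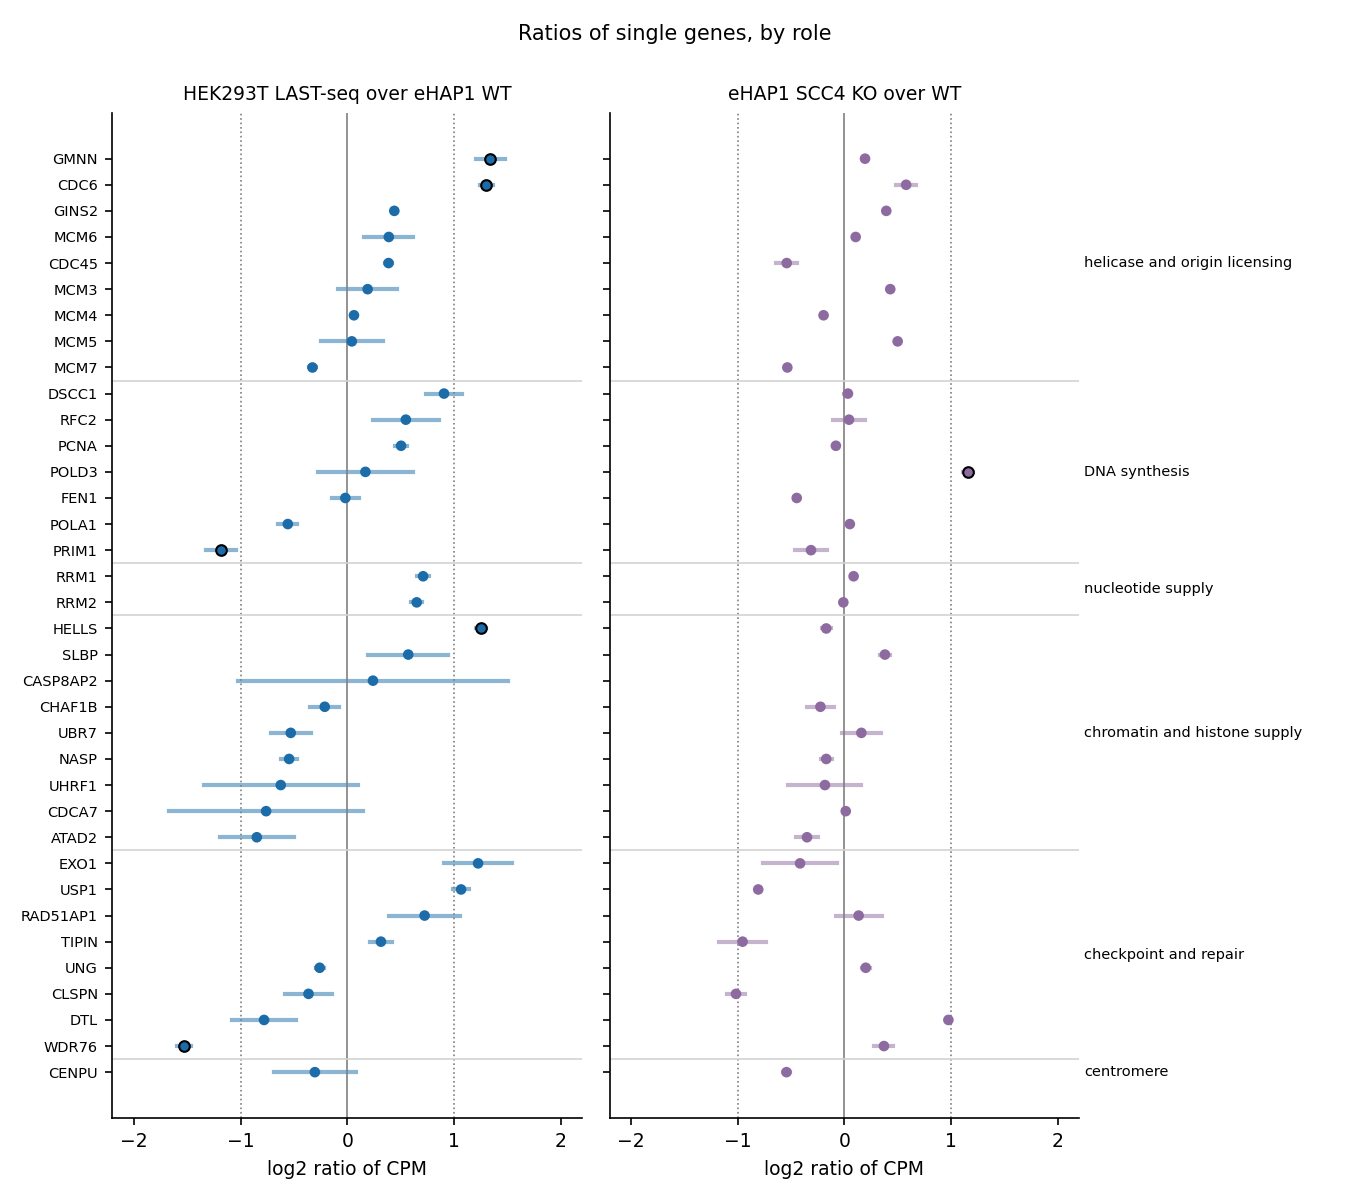
Log2 ratio of CPM (x axis) for the members that passed the filter, grouped by role, for HEK293T LAST-seq over eHAP1 WT (left) and eHAP1 SCC4 KO over WT (right). Points are means, bars span the pairings of libraries or batches, dotted lines mark 2-fold, and ringed points are the 5 genes called on the left and POLD3 on the right.

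Between the eHAP1 genotypes the group as a whole differed by under 5% in share. The share in SCC4 KO was 0.963 times that in WT, with 0.958 to 0.968 over pairings of batches, and with 1 sample per genotype no test was made. Of 35 members that passed the filter, 1 was called higher and 0 lower, beside 2.49% and 2.52% of 9183 genes, or 5.01% in either direction. The median log2 ratio was 0.01 for the members and 0.03 for all genes. With edgeR on the batch sums, 9 members were higher and 12 lower at an adjusted p under 0.05. But that test takes the agreement of the batches as the error, and the batches are libraries of 1 sample. The share of all genes called by that test was not counted, so these member counts have no background.

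POLD3, an accessory subunit of DNA polymerase delta, was the member called higher. It was at 13.16 and 13.01 CPM in WT and at 28.5 and 30.1 in SCC4 KO, with a log2 ratio of 1.16. In HEK293T cells it was at 19.7 and 10.6, so the HEK293T replicates differed nearly as much as the genotypes.

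DTL, the substrate receptor of the ubiquitin ligase that removes CDT1 in S phase, was at 104.5 and 102.9 CPM in WT and 205 and 203 in SCC4 KO. Its log2 ratio of 0.98 was just under 2-fold. CDC6 had the next ratio, 0.58. HEK293T cells had 73.7 and 49.0 for DTL, below both genotypes.

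CLSPN and TIPIN, which act in the replication checkpoint, and USP1 had the lowest ratios of SCC4 KO to WT. CLSPN was at 55.1 and 58.4 CPM in WT and 27.2 and 28.9 in SCC4 KO, with a log2 ratio of -1.02. TIPIN was at 38.4 and 34.9 in WT and 16.9 and 21.0 in SCC4 KO, with a ratio of -0.95. Neither was past 2-fold in every pairing, and the ratio of USP1 was -0.81. In HEK293T, CLSPN was at 38.6 and 49.7 and TIPIN at 44.2 and 46.4. MCM3 and MCM5 were higher in SCC4 KO (0.43 and 0.50) while MCM7 was lower (-0.53), all under 2-fold.

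A list of 45 other replication genes was read beside the members. Against eHAP1 WT, 43 passed the filter, and 3 were called higher in HEK293T and 0 lower, beside 12.4% and 10.5% of all 9721 genes. The median log2 ratio was 0.43 for that list and 0.21 for all genes. GINS3, a subunit of the GINS complex, DBF4, the activator of the CDC7 kinase, and DCTPP1, a nucleotide pyrophosphatase, had the highest ratios, of 1.89, 1.88 and 1.49. GINS3 was at 37.2 and 64.9 CPM in HEK293T and 13.03 and 13.50 in WT, DBF4 at 24.6 and 30.5 and 9.09 and 6.18, and DCTPP1 at 213 and 209 and 75.2 and 75.8. TK1 (thymidine kinase), DUT (dUTPase) and ASF1B (a histone chaperone) had the lowest, of -1.19, -1.02 and -0.96, and were not called.

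Between the genotypes, 0 of 42 genes of that list were called in either direction, beside 5.01% of all 9183 genes. The median was -0.06, beside 0.03 for all genes. TK1 was at 333 and 342 CPM in WT and 172 and 167 in SCC4 KO (log2 ratio -0.99), POLE4 had -0.58 and ASF1B -0.52. POLD2, another subunit of DNA polymerase delta, was at 123 and 122 in WT and 217 and 216 in SCC4 KO (0.82), POLE2 had 0.77 and DCTPP1 0.51. Of 8 regulators of the G1/S step, 1 was called between the genotypes, beside the same 5.01% of all genes. That gene was E2F1, which was named after its values were seen. E2F1 was at 90.6 and 84.1 in HEK293T, 296 and 302 in WT and 140 and 138 in SCC4 KO, and was lower in HEK293T than in WT (-1.77) and lower in SCC4 KO than in WT (-1.11).

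In the same cell line, the share of UMIs on the members differed between the assays. The share was 0.505% (exact interval 0.494 to 0.517) and 0.497% (0.485 to 0.508) in CEL-seq2, and LAST-seq had 0.832 times that share (0.783 to 0.881 over pairings). With 2 libraries per assay, an exact permutation test over libraries cannot pass a threshold of 0.05. With mitochondrial genes, at 7.48% and 9.24% of CEL-seq2 UMIs, left out of the total, the ratio was 0.902. Of 38 members that passed the filter, 4 were called higher in LAST-seq and 5 lower by edgeR's quasi-likelihood test at an adjusted p under 0.05, beside 10.2% and 12.6% of 10930 genes. The median log2 ratio was -0.03 for the members and -0.05 for all genes. Scaled to total UMIs, as the share is, the median log2 ratio was -0.33 for the members and -0.37 for all 10924 genes. On that scale the members thus lay near the median of all genes. That median was lower by 0.31 than with TMM, and 0 members were called higher and 10 lower. How many of all genes edgeR called on that scale was not counted. By the rule of 2-fold in every pairing, 0 members were higher and 7 lower, beside 4.85% and 17.5% of 10924 genes. With edgeR and TMM again, the calls without LAST-seq replicate 1 were 0 higher and 2 lower, and without LAST-seq replicate 2 they were 0 and 0. In these fits LAST-seq is 1 library, assumed to vary as the CEL-seq2 libraries do.

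RRM2 was at 268 and 284 CPM in LAST-seq against 148 and 156 by CEL-seq2, with an edgeR log2 ratio of 1.16 ± 0.280 (SE, adjusted p = 0.0211). GMNN was at 350 and 291 against 182 and 200 (1.05, edgeR adjusted p = 0.0364). PCNA was at 390 and 360 against 220 and 234 (1.03, edgeR adjusted p = 0.0348). For these genes and GINS2 (1.01, edgeR adjusted p = 0.0427), both LAST-seq libraries were above both CEL-seq2 libraries. In the comparison of assays, the edgeR log2 ratios are scaled by TMM and the CPM to total UMIs. From the CPM, log2 ratios over pairings were 0.78 to 0.94 for RRM2, 0.54 to 0.94 for GMNN, 0.62 to 0.83 for PCNA and 0.55 to 0.91 for GINS2. All of these were under 2-fold.

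NASP, a histone chaperone, was at 68.8 and 65.6 CPM in LAST-seq against 402 and 561 in CEL-seq2 (-2.55 ± 0.342, edgeR adjusted p = 0.00289). CASP8AP2, needed for histone gene expression, was at 15.4 and 3.31 against 113 and 72.8 (-2.97, edgeR adjusted p = 0.0106). BLM, a helicase of DNA repair, was at 5.62 and 5.96 against 57.3 and 49.5 (-2.88, edgeR adjusted p = 0.00455). The libraries of the assays did not overlap for any of them. PRIM1 (-2.51, edgeR adjusted p = 0.0115) and CLSPN (-1.71, edgeR adjusted p = 0.00678) were lower in LAST-seq as well.

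Among the MCM subunits, MCM7 was at 432 and 448 CPM in LAST-seq against 606 and 420 in CEL-seq2, and MCM6 at 240 and 177 against 139 and 146. MCM3 was at 119 and 81.5 against 221 and 203. None of MCM3 to MCM7 passed the test (edgeR adjusted p from 0.0781 for MCM6 to 0.8287 for MCM7). For HELLS, 182 and 190 in LAST-seq stood against 458 and 366 in CEL-seq2 (-0.83, edgeR adjusted p = 0.0587), and for USP1, 407 and 372 against 369 and 278 (0.59, edgeR adjusted p = 0.169). Of the 45 other replication genes, 5 were called higher in LAST-seq and 2 lower, beside the 10.2% and 12.6% of all genes.

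MCM2 and TYMS, markers of S phase, were all but missing from the UMI counts. MCM2 had 0 UMIs in both LAST-seq libraries of HEK293T cells and in all 4 eHAP1 batches, which allows up to 2.11 and 1.99 CPM in the former (3 UMIs of the total of each library). In CEL-seq2 it was at 1.93 and 3.44 CPM, and in SMART-seq at 37.4 CPM of reads in cells and 113 and 81.2 in the lysate libraries. TYMS was at 0 and 0.662 CPM in LAST-seq of HEK293T, 0.407 and 0.0813 in WT, 1.24 and 0.771 in SCC4 KO, 2.57 and 4.81 in CEL-seq2 and 143 CPM of reads in SMART-seq cells. SMART-seq reads come from the whole transcript and grow with its length, so the CPM of reads and of UMIs are on different scales.

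Both genes share their 3' end with another gene. LAST-seq and CEL-seq2 start from the poly-A tail, and in the GENCODE annotation on GRCh38 the last 500 exonic bases of MCM2 (chr3:127598410-127622436, plus strand) lie within exons of ENSG00000285600 on the opposite strand. Those of TYMS lie within exons of ENOSF1, and those of CCNE2, cyclin E2, within exons of INTS8, again on the opposite strand. Of the last 500 bases of PRIM1, 78.8% lie within exons of NACA or ENSG00000285625 on the same strand. CENPU, CDC45 and GINS2 share 28.2%, 7.4% and 1.4%, and the other 34 members share none. The 4 members with over 50% shared were those with the fewest UMIs in LAST-seq of HEK293T cells, and whether the counting used strand or dropped reads on overlapping genes is not stated, so reads of such pairs cannot be told apart here. BLM, E2F8 and WDR76 had under 10 CPM in LAST-seq of HEK293T cells with no base shared.

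CCNE2 had 2.81 and 4.64 CPM by LAST-seq of HEK293T cells, 7.72 and 6.18 by CEL-seq2 and 0 in all 4 eHAP1 batches. PRIM1, at 4.91 and 5.30 in LAST-seq, was at 42.5 and 30.9 in CEL-seq2 and 79.1 CPM of reads in SMART-seq cells. The partner ENOSF1 was at 13.3 and 7.95 CPM in LAST-seq of HEK293T and 57.3 and 44.7 in CEL-seq2. NACA, at 913 and 956 in LAST-seq against 455 and 637 in CEL-seq2, went the opposite way. The part of these overlaps in the low counts was not tested.

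**Figure D4:**
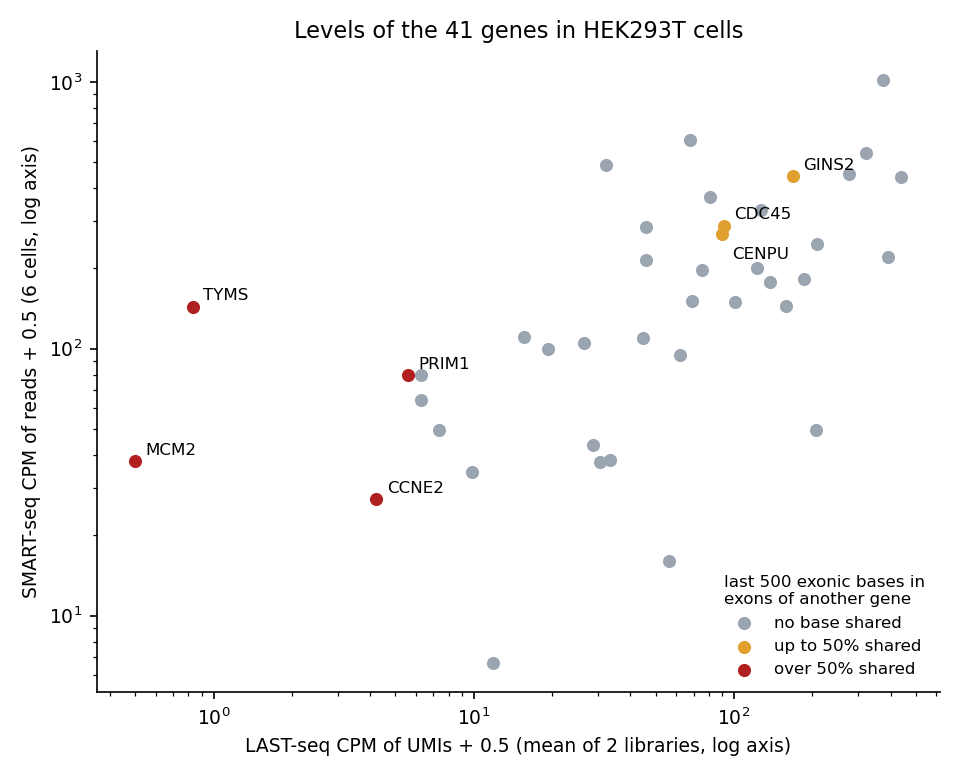
LAST-seq CPM (x axis, mean of 2 libraries, 0.5 added, log scale) against SMART-seq CPM (y axis, 6 cells, 0.5 added, log scale) for the 41 genes in HEK293T cells, coloured by how much of the last 500 exonic bases lies in exons of another gene. MCM2 and TYMS stand apart at the left, at 37.4 and 143 SMART-seq CPM, and PRIM1 and CCNE2 are near the low end of LAST-seq.

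SMART-seq reads gave a member share of 0.862% in the 6 cells and 0.811% and 0.847% in the lysate libraries, or 0.844% in replicate 2 over the wells that do not match a cell. Counted as reads in the same way, the shares were 0.461% and 0.437% in LAST-seq cells and 0.585% in CEL-seq2 replicate 1. The cells and lysate of SMART-seq thus lay close together, but the cells are not a separate measurement, as given above.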

How the data were processed

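UMI counts per gene and well from LAST-seq and CEL-seq2 and read counts per gene and well from SMART-seq were used as deposited by the authors, who trimmed reads with cutadapt, ran zUMIs on GRCh38 with a GENCODE annotation, kept exonic reads and merged UMIs of identical sequence. They subsampled reads to an equal depth for comparing the assays, and the eHAP1 wells are at unequal depth. Base calls came from bcl2fastq 2.20, per the submitters' processing notes. The counts were not normalized. Whether eHAP1 counts had been batch-corrected and whether counting used strand are not given in the sources used here.

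Spike-ins were left out. Counts were summed per library or eHAP1 batch and expressed as CPM, for ratios after adding 0.5 UMI, and genes that averaged under 1 UMI in a cell were left out. HEK293T and eHAP1 were compared by the rule of 2-fold in every pairing, since each genotype was 1 sample, and assays by edgeR 4.0.16 (quasi-likelihood test, TMM, Benjamini-Hochberg), with DESeq2 1.42.0 as an alternative, both tested on simulated data first. Nothing says that libraries are separate cultures, so p-values measure the spread between libraries only. Wells were called near-identical where the squared difference of their reads, divided by their sum, averaged under 2 among genes of 20 or more summed reads. The squared deviate between batches is the squared difference of a gene's counts, scaled to totals, over its counting variance. Intervals are exact at the 95% level.

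The members and lists were chosen with earlier results of these data known. Values in the libraries compared were given for the member with the most UMIs in each role, MCM2 to MCM7 and the 3 highest and 3 lowest ratios, among members that passed the filter, of HEK293T against WT, SCC4 KO against WT and LAST-seq against CEL-seq2. Other members were named after their values were seen. Python 3.11.15 with pandas 2.3.3, numpy 2.4.6 and scipy 1.17.1 and R 4.3.3 were used.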

Additional observations from a re-analysis of the deposited data

Results flagged for a closer look

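In CEL-seq2 replicate 2 of HEK293T, the cell with the highest share of UMIs on the members, 0.769%, lay far from the other 9 cells of its library by Dixon's ratio. Among the libraries of 4 to 10 wells tested by this ratio, it was the only well that stood apart, and chance flags about 1 in 20 groups. The highest cell of CEL-seq2 replicate 1, at 0.807%, did not stand apart from its library.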

How the results depend on the processing

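The 4 share ratios, HEK293T over WT and over SCC4 KO, SCC4 KO over WT and LAST-seq over CEL-seq2, stayed on their side of 1 in the alternatives run. These were the mean share per cell, thinning, no mitochondrial genes and leaving out 1 library or batch. TMM and DESeq2 factors were not applied to the shares, so this covers scaling to total UMIs only. In the same order, TMM factors moved the median log2 ratio of all genes by -0.222, -0.198, -0.0372 and 0.308. The LAST-seq lysate, under both SCC4 KO batches as deposited (0.319%), lay between them when thinned (0.330% against 0.331% and 0.324%). With mitochondrial genes left out, the ratio was 1.14 for HEK293T over eHAP1 WT, 1.18 over SCC4 KO and 0.902 for LAST-seq over CEL-seq2, and thinned to 50000 UMIs it was 0.952 for SCC4 KO over WT. Against WT, members called higher numbered 0 with edgeR TMM factors, 0 with DESeq2 size factors, 5 with no filter, 7 with edgeR and 6 with DESeq2 on batch sums, and those lower 1 with 2 UMIs added, 10 with edgeR and 6 with DESeq2. Against SCC4 KO, they numbered 3 and 3 higher with both sets of factors, 10 higher and 6 lower with edgeR and 8 higher and 5 lower with DESeq2. For SCC4 KO against WT, edgeR gave 9 higher and 12 lower and DESeq2 8 and 10. For LAST-seq against CEL-seq2, total UMI scaling gave 0 higher and 10 lower, and the rule of 2-fold in every pairing 0 higher. MCM4, MCM7 and CENPU, not called, turned to the other direction with total UMI scaling (-0.14, -0.22 and -0.040) and by the 2-fold rule (-0.14, -0.20 and -0.068).

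Leaving out 1 library or batch at a time gave 3 to 6 higher and 1 to 5 lower against WT, with 6 higher without LAST-seq replicate 2, 5 lower without replicate 1 and 1 lower without WT batch 2. Against SCC4 KO it gave 2 to 4 lower, with 4 without LAST-seq replicate 1. For SCC4 KO against WT it gave 0 to 2 lower, with 2 without SCC4 KO batch 2 and 1 without WT batch 1. For LAST-seq against CEL-seq2 it gave 0 to 6 higher and 0 to 7 lower, with 0 and 2 without LAST-seq replicate 1 and 0 of either without LAST-seq replicate 2. Its log2 ratio ran from -0.068 (without CEL-seq2 replicate 1) to 0.31 for MCM4, from -0.085 (without CEL-seq2 replicate 2) to 0.22 for MCM7, and from -0.14 (without CEL-seq2 replicate 1; -0.13 without LAST-seq replicate 2) to 0.61 for CENPU. The number of eHAP1 cells that reached the lowest HEK293T cell went from 66 to 103 (thinned) and 133 (no mitochondrial genes) in WT and from 42 to 80 and 112 in SCC4 KO. The cause of these moves was not tested. Except for the 2-fold rule between the assays, the share of all genes called was not counted in the alternatives of this section. Their member counts thus have no background.

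With the batch as a replicate block, edgeR gave 9 members higher and 12 lower in SCC4 KO against WT, as without the block. For LAST-seq against CEL-seq2, no paired analysis was possible because the replicate numbers only name the libraries. Of 385 values of single members between the genotypes, 325 stayed on their side of the threshold. The other 60 were of members not called by the 2-fold rule that were called in an alternative. Direction was compared for called members only, here POLD3 alone, and it did not turn. With 15 to 20 UMIs in HEK293T, ratios such as those of PRIM1 and WDR76 are limited by depth.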
